A study of Homo sapiens with 6 samples.

Results

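The genes described here encode heat shock proteins and their partners: the HSP70, HSP110, HSP90 and small heat shock proteins, the chaperonin pair HSPD1 and HSPE1, the J-domain (DNAJ) co-chaperones, the BAG exchange factors, and the transcription factors HSF1 and HSF2. They were chosen by symbol, leaving out 5 chaperones of the endoplasmic reticulum, which gave 74 genes of the 60623 gene IDs in the mRNA table. No measured value entered the choice. MRC5 cells, a human lung fibroblast line labelled wild type, were profiled at 48 h in 3 groups: luteolin, a plant flavonoid, given with the fibrogenic cytokine TGF-β1; TGF-β1 alone; and a control labelled DMSO. Each group had 1 mRNA library. The labels give no dose, and luteolin without TGF-β1 is not analysed here, so that luteolin is seen only together with TGF-β1. Without replicates, each ratio below sets one library against another and not one treatment against another, and every interval is a 95% interval for counting error alone.

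Chaperones bind proteins that are unfolded or not yet folded. HSP70 works in cycles of ATP hydrolysis that J-domain proteins start and that nucleotide exchange factors (HSP110 and BAG proteins) end, HSP90 finishes the folding of kinases, steroid receptors and other clients, and small heat shock proteins hold unfolded protein in a form that can be refolded. HSF1 is the main factor that raises transcription of these genes when unfolded protein accumulates, by binding heat shock elements, which are repeats of GAA and TTC in their regulatory regions. In fibroblasts and muscle, HSPB1 and its relatives also bind the actin cytoskeleton. The label names the cytosol, but the rule also takes in chaperones of mitochondria (HSPA9, HSPD1, HSPE1) and the microsomal protein HSPA13.

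The libraries held 15563805 (luteolin + TGF-β1), 14609132 (TGF-β1) and 17876657 (control) counts. Fibroblast markers were detected in every library, 8 of 8 with summed levels of 24607, 21196 and 10823 TPM (a level per transcript length, scaled to the same total in every library) in luteolin + TGF-β1, TGF-β1 and control. The 8 did not move together: for luteolin + TGF-β1 over control, 5 had a log2 ratio above 0 and 3 below. COL1A1 had 10539, 6970 and 3428 TPM in luteolin + TGF-β1, TGF-β1 and control, and S100A4 had 6.37, 22.5 and 45.7 TPM. Leukocyte markers were at 0 for 6, 5 and 3 of 6 genes in the same libraries, and endothelial markers for 5, 3 and 1 of 6. The endothelial list summed to 2.09, 27.9 and 31.0 TPM in luteolin + TGF-β1, TGF-β1 and control, nearly all of it TEK, an angiopoietin receptor, with 40, 501 and 714 counts. TEK was lower in luteolin + TGF-β1 than in TGF-β1 by a log2 ratio of -3.52 (-4.02 to -3.05), and its part in the chaperone ratios was not tested. The 7 epithelial markers summed to 53.6, 170 and 131 TPM, most of it KRT18 at 39.7, 156 and 110 TPM. Cell division genes set the luteolin + TGF-β1 library apart: a list of 10 summed to 240 TPM there, against 2238 TPM with TGF-β1 alone and 1977 TPM in control. In RNA from whole cultures, fewer cells of a type and less RNA per cell cannot be told apart.

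The letters of the heat shock element were looked for in the RefSeq start windows of the chaperone genes (GRCh38.p14). Each window runs from 250 bases before to 50 after an annotated start. The search was made because several of the most abundant of these genes hold the element. A share above that of all windows therefore describes the group and is no independent finding. The motif of 3 units (GAA, TTC and GAA, each 2 bases apart, and its reverse complement) was found in 7 of 85 windows, or 8.24%, against 0.490% of all 35116 windows. The shorter motif of 2 units, GAANNTTC or TTCNNGAA, which every 3-unit match contains, was found in 24 of 85 windows, 28.2%, against 13.5% of all windows. Windows were listed for 63 of the 74 genes. A match describes letters and does not show that a factor binds. The stretches below carry the matches, 5′ to 3′ on the strand of the gene, with the matched letters in capitals; the first 6 genes have 3 units, and HSPA1A and HSPA1B, the stress-inducible HSP70 genes, have 2. Their places are chr14:102087104-102087148 (minus strand) for HSP90AA1, chr6:44247762-44247859 (plus) for HSP90AB1, chr11:123062163-123062207 (minus) for HSPA8, chr2:197500052-197500090 (minus) for HSPD1, chr9:33025260-33025304 (plus) for DNAJA1, chr7:157336857-157336901 (plus) for DNAJB6, chr6:31815421-31815460 (plus) for HSPA1A and chr6:31827617-31827656 (plus) for HSPA1B.
HSP90AA1: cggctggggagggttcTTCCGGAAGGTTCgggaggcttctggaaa
HSP90AB1: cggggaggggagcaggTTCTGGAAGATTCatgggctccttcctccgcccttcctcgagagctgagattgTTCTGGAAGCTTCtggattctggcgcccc
HSPA8: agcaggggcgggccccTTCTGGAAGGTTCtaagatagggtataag
HSPD1: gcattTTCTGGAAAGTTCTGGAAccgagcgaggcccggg
DNAJA1: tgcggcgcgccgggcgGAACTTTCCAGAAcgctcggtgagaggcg
DNAJB6: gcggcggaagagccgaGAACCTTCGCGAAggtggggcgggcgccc
HSPA1A: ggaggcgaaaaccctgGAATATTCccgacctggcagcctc
HSPA1B: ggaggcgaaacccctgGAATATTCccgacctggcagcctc

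HSP90AB1 and HSPD1 hold 2 such matches each within the stretch shown, overlapping in HSPD1, and HSPA8 holds a second one further from the start. The matches of HSP90AA1 and HSPA8 shown lie 88 and 55 bases before the annotated start of their window, and that of DNAJA1 begins at base 4 after it. HSP90AA1 and HSPD1 have 2 windows each and HSP90AB1 has 3, so their matches belong to 1 of several annotated starts. That start need not be the end of the whole gene span. HSPA6, an HSP70 gene known for being silent outside stress, also holds 3 units, but it had only 2, 8 and 10 counts in luteolin + TGF-β1, TGF-β1 and control. HSPA1A and HSPA1B lie on chromosome 6 with 9795 bases between them, and their start windows were identical at 92.0% of aligned positions. Their transcripts are known to be near-identical, and how reads that match both were counted was not tested.

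Per transcript length, the chaperone genes made up a smaller share of the luteolin + TGF-β1 library. Their levels summed to 6532 TPM in luteolin + TGF-β1, against 10621 TPM in TGF-β1 and 10312 TPM in control, which is 0.653%, 1.06% and 1.03% of all TPM. HSP90 genes summed to 1435, 3498 and 3793 TPM in luteolin + TGF-β1, TGF-β1 and control, and HSP70 genes to 1532, 2960 and 2759 TPM in those libraries. Small heat shock protein genes summed to 1766 TPM in luteolin + TGF-β1, the highest of the 3 libraries, against 1522 TPM in TGF-β1 and 1095 TPM in control. They held 27.0% of the chaperone TPM in luteolin + TGF-β1, against 14.3% in TGF-β1 and 10.6% in control. Most of each sum was HSPB1, at 1552, 1339 and 854 TPM in luteolin + TGF-β1, TGF-β1 and control. The sum and the share therefore speak mainly for that gene and not for the family. The order at the top differed too: HSPB1 ranked first in luteolin + TGF-β1 at 1552 TPM, ahead of HSPA8 at 1220 TPM, whereas HSPA8 ranked first in TGF-β1 at 2580 TPM and in control at 2407 TPM. No replicate spread is available against which to read these levels.

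**Figure D1:**
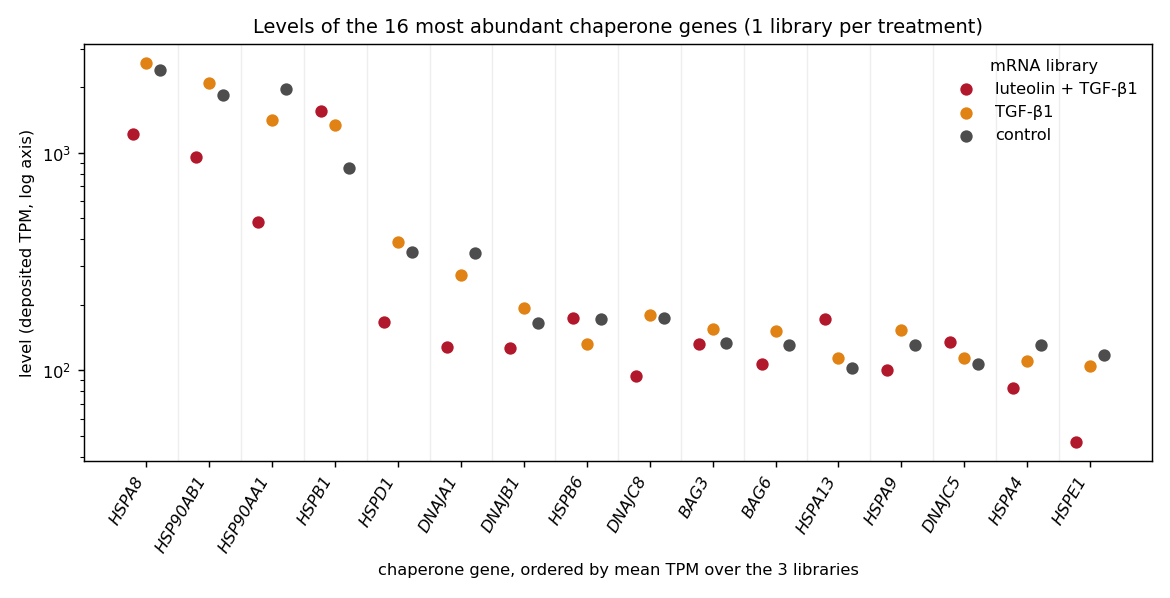
Levels of the 16 most abundant chaperone genes in each mRNA library (deposited TPM, log axis; 1 point per library). HSPA8, HSP90AB1 and HSP90AA1 sit lowest in luteolin + TGF-β1, at 1220, 954 and 481 TPM, while HSPB1 sits highest there, at 1552 TPM.

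Luteolin + TGF-β1 was first set against TGF-β1, 1 library against 1, whose labels differ by luteolin. The labels do not say whether either culture received DMSO. Luteolin and any difference in DMSO therefore cannot be told apart. Among the genes called by the rule below, HSP90AA1 lay 2.54-fold, HSPH1 2.89-fold, HSPA1A 2.78-fold and HSPA1B 2.70-fold lower. HSPB7 lay 2.23-fold higher. The abundant HSPA8, HSP90AB1 and HSPB1 were not called, with log2 ratios of -0.87, -0.92 and 0.42. Ratios are of counts scaled by TMM, a factor that corrects library size for composition. A gene was eligible with 1 CPM (its scaled count relative to library size) or more in either library. It was called when the 2 libraries differed at least 2-fold and the interval left out equality. Of the 74 genes 61 were eligible, 10 were called lower and 2 higher. That is 16.4% lower and 3.28% higher, against 14.8% lower and 12.5% higher among all 13703 eligible genes, so the share called lower is near the background and is no feature of the group. The median log2 ratio was -0.27 over the eligible chaperone genes and -0.04 over all eligible genes, and 38 of the 61 lay below 0. At a limit of 1.5-fold, 19 were called lower and 10 higher (31.1% and 16.4%, against 24.3% and 21.3% of all eligible genes).

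The split of calls depended on scaling, which moved every log2 ratio of this comparison by -0.22 with total counts and by 0.17 with the upper quartile. The eligible chaperone genes then had 0 higher and 17 lower with total counts and 5 higher and 7 lower with the upper quartile, against 2 and 10 with TMM. All eligible genes moved the same way, with 1187 higher and 2665 lower with total counts and 2221 higher and 1605 lower with the upper quartile, against 1707 and 2030 with TMM. Those called lower under TMM, total counts, the upper quartile and DESeq2 size factors alike were HSP90AA1, HSPA1A, HSPA1B, HSPH1, HSPB8, DNAJC9 and DNAJC22, 7 in all. No chaperone gene was called higher under all 4 scalings. The share of all eligible genes called under all 4 is not given here, so the 7 are not read as a feature of the group.

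The heat shock factors came first by role and lay on opposite sides. HSF1 (ENSG00000185122), the main stress factor, had 98.8 CPM in luteolin + TGF-β1, 75.5 CPM in TGF-β1 and 58.9 CPM in control. HSF2 (ENSG00000025156), which can act with HSF1, had 10.6, 14.6 and 18.4 CPM in luteolin + TGF-β1, TGF-β1 and control. Neither was called: their log2 ratios for luteolin + TGF-β1 over TGF-β1 were 0.39 (interval 0.27 to 0.50) and -0.46 (-0.77 to -0.15). HSF1 mRNA is not a measure of HSF1 activity, which is set largely on the protein.

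The pair of cytosolic HSP90 genes separated. HSP90AA1 (ENSG00000080824), the stress-inducible form, had 735 CPM in luteolin + TGF-β1, against 1869 CPM in TGF-β1 and 2509 CPM in control. It was called lower in luteolin + TGF-β1 than in TGF-β1, with a log2 ratio of -1.35 (-1.38 to -1.31). HSP90AB1 (ENSG00000096384), the constitutive form, had 828, 1562 and 1331 CPM in luteolin + TGF-β1, TGF-β1 and control. Its log2 ratio of -0.92 (-0.95 to -0.88) fell short of the limit, and passed it at -1.13 with total counts. Per length, HSP90AA1 stood at 0.504 of the HSP90AB1 level in luteolin + TGF-β1, at 0.679 in TGF-β1 and at 1.07 in control. Pseudogenes of both HSP90 genes and of HSPA8 can share reads with them, so these levels carry that uncertainty. HSP90AA1 spans chromosome 14 from 102080742 to 102139749 and HSP90AB1 chromosome 6 from 44246194 to 44253883 (GRCh38.p14, whole gene).

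Of 9 eligible HSP70 genes, 3 were called lower and 0 higher in luteolin + TGF-β1 than in TGF-β1. That is 33.3% lower, against 14.8% lower and 12.5% higher among all eligible genes. It rests on 9 genes, with the near-identical HSPA1A and HSPA1B among those called. HSPA8 (ENSG00000109971), the constitutive cytosolic HSP70, had 1723 CPM in luteolin + TGF-β1, 3148 CPM in TGF-β1 and 2846 CPM in control, with a log2 ratio to TGF-β1 of -0.87 (-0.89 to -0.85), short of the limit. HSPA1A (ENSG00000204389) had 11.04, 30.7 and 24.8 CPM in luteolin + TGF-β1, TGF-β1 and control and was called lower than in TGF-β1 at -1.47 (-1.75 to -1.21). HSPA1B (ENSG00000204388), its near-identical copy, had 5.92, 16.01 and 14.3 CPM in luteolin + TGF-β1, TGF-β1 and control and was called lower at -1.43 (-1.82 to -1.07). With both copies summed, 232 counts in luteolin + TGF-β1 stood against 697 in TGF-β1. The log2 ratio of the sum was -1.46 (-1.68 to -1.24), and the sum was called lower. The sum does not show how each copy would be called if shared reads were assigned otherwise or had been left out. HSPA1L, the third gene of that cluster, had 14, 24 and 28 counts in luteolin + TGF-β1, TGF-β1 and control.

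Of the 9 eligible HSP70 genes, 8 had a log2 ratio to TGF-β1 below 0 and 1 above, with a median of -0.89. HSPA12A, a distant relative, was called lower at -1.07 (-1.31 to -0.83) with 15.4 CPM in luteolin + TGF-β1 against 32.1 CPM in TGF-β1, and lost the call at -0.89 with the upper quartile. HSPA2, best known from the testis, had 7.68 CPM in luteolin + TGF-β1, 14.2 CPM in TGF-β1 and 28.0 CPM in control, and its ratio to TGF-β1 was -0.89. HSPA14, which binds ribosomes, was at -0.91 and the mitochondrial HSPA9 at -0.39. HSPA13 stood alone on the higher side, with 207, 119 and 103 CPM in luteolin + TGF-β1, TGF-β1 and control and a log2 ratio to TGF-β1 of 0.80 (0.71 to 0.88), which was not called.

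Among the HSP110 genes, HSPH1 (ENSG00000120694), a heat-inducible exchange factor for HSP70, had 46.4 CPM in luteolin + TGF-β1, against 134 CPM in TGF-β1 and 128 CPM in control. It was called lower than in TGF-β1 at -1.53 (-1.66 to -1.40). Its relatives differed from it: HSPA4 was at -0.20 (-0.29 to -0.11) and HSPA4L at 0.93 (0.54 to 1.33), and neither was called. The mitochondrial chaperonin HSPD1 and its lid HSPE1 are neighbours on chromosome 2, with 104 bases between their spans. HSPD1 had 200 CPM in luteolin + TGF-β1, 405 CPM in TGF-β1 and 350 CPM in control, and HSPE1 had 24.9, 47.9 and 52.3 CPM in luteolin + TGF-β1, TGF-β1 and control. Their log2 ratios to TGF-β1 lay just inside and just outside the limit, at -1.02 (-1.09 to -0.95) for HSPD1, which lost the call at -0.85 with the upper quartile, and at -0.95 (-1.14 to -0.76) for HSPE1.

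Small heat shock protein genes were split, with 1 of 5 eligible genes called in each direction. Each is 20% of few genes, against 14.8% lower and 12.5% higher among all eligible genes. HSPB7 (ENSG00000173641), a small heat shock protein of heart and muscle, had 27.3 CPM in luteolin + TGF-β1, 12.3 CPM in TGF-β1 and 8.24 CPM in control, and was called higher than in TGF-β1 at 1.16 (0.90 to 1.42). That call was lost at 0.94 with total counts. HSPB8 (ENSG00000152137), which works with BAG3 in the removal of damaged actin-bound proteins, had 7.46, 17.5 and 30.1 CPM in luteolin + TGF-β1, TGF-β1 and control and was called lower at -1.23 (-1.57 to -0.89). HSPB1 (ENSG00000106211), the most abundant small heat shock protein gene, had 681, 507 and 313 CPM in luteolin + TGF-β1, TGF-β1 and control, with a ratio to TGF-β1 of 0.42 (0.38 to 0.47), and HSPB6, a relative found in smooth muscle, was at 0.61. HSPB11, which takes part in transport along cilia, was at -0.76.

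J-domain genes, the largest family with 39 genes, lay on both sides: of 32 eligible, 16 had a ratio above 0 and 16 below, from -1.78 to 2.03, with a median of 0.02. Of these, 3 were called lower and 1 higher (9.4% and 3.1%, against 14.8% and 12.5% of all eligible genes). At 1.5-fold, 5 were lower and 6 higher (15.6% and 18.75%, against 24.3% and 21.3% of all). DNAJC9 (ENSG00000213551), a co-chaperone of histones, had 28.1 CPM in luteolin + TGF-β1, 96.5 CPM in TGF-β1 and 81.9 CPM in control, and was called lower than in TGF-β1 at -1.78 (-1.95 to -1.62), the lowest ratio of the group. DNAJC22 was called lower at -1.69 (-2.13 to -1.27) with 4.46 CPM in luteolin + TGF-β1 against 14.4 CPM in TGF-β1, and DNAJC17 at -1.05 (-1.47 to -0.64), a call lost at -0.88 with the upper quartile. DNAJC28, called higher at 2.03 (0.38 to 4.08), was eligible only through the luteolin + TGF-β1 library and rests on 15 counts there against 4 in TGF-β1. Of the most abundant J-domain genes, DNAJA1, a partner of cytosolic HSP70, had 99.2, 184 and 225 CPM in luteolin + TGF-β1, TGF-β1 and control and a ratio to TGF-β1 of -0.89. The inducible partner DNAJB1 was at -0.40, the spliceosome-associated DNAJC8 at -0.73 and DNAJC5, a chaperone of synaptic and secretory vesicles, at 0.45.

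None of the 6 BAG genes was called, where 14.8% of all eligible genes were lower and 12.5% higher. BAG3, a heat-inducible partner of HSP70 and HSPB8 in selective autophagy, had 105 CPM in luteolin + TGF-β1, 107 CPM in TGF-β1 and 89.6 CPM in control, and a log2 ratio to TGF-β1 of -0.02 (-0.13 to 0.08). BAG5 was at -0.04, BAG6, which guards newly made membrane proteins, at -0.29, BAG4 at -0.53 and BAG1 at -0.85. BAG2 was at 0.36.

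**Figure D2:**
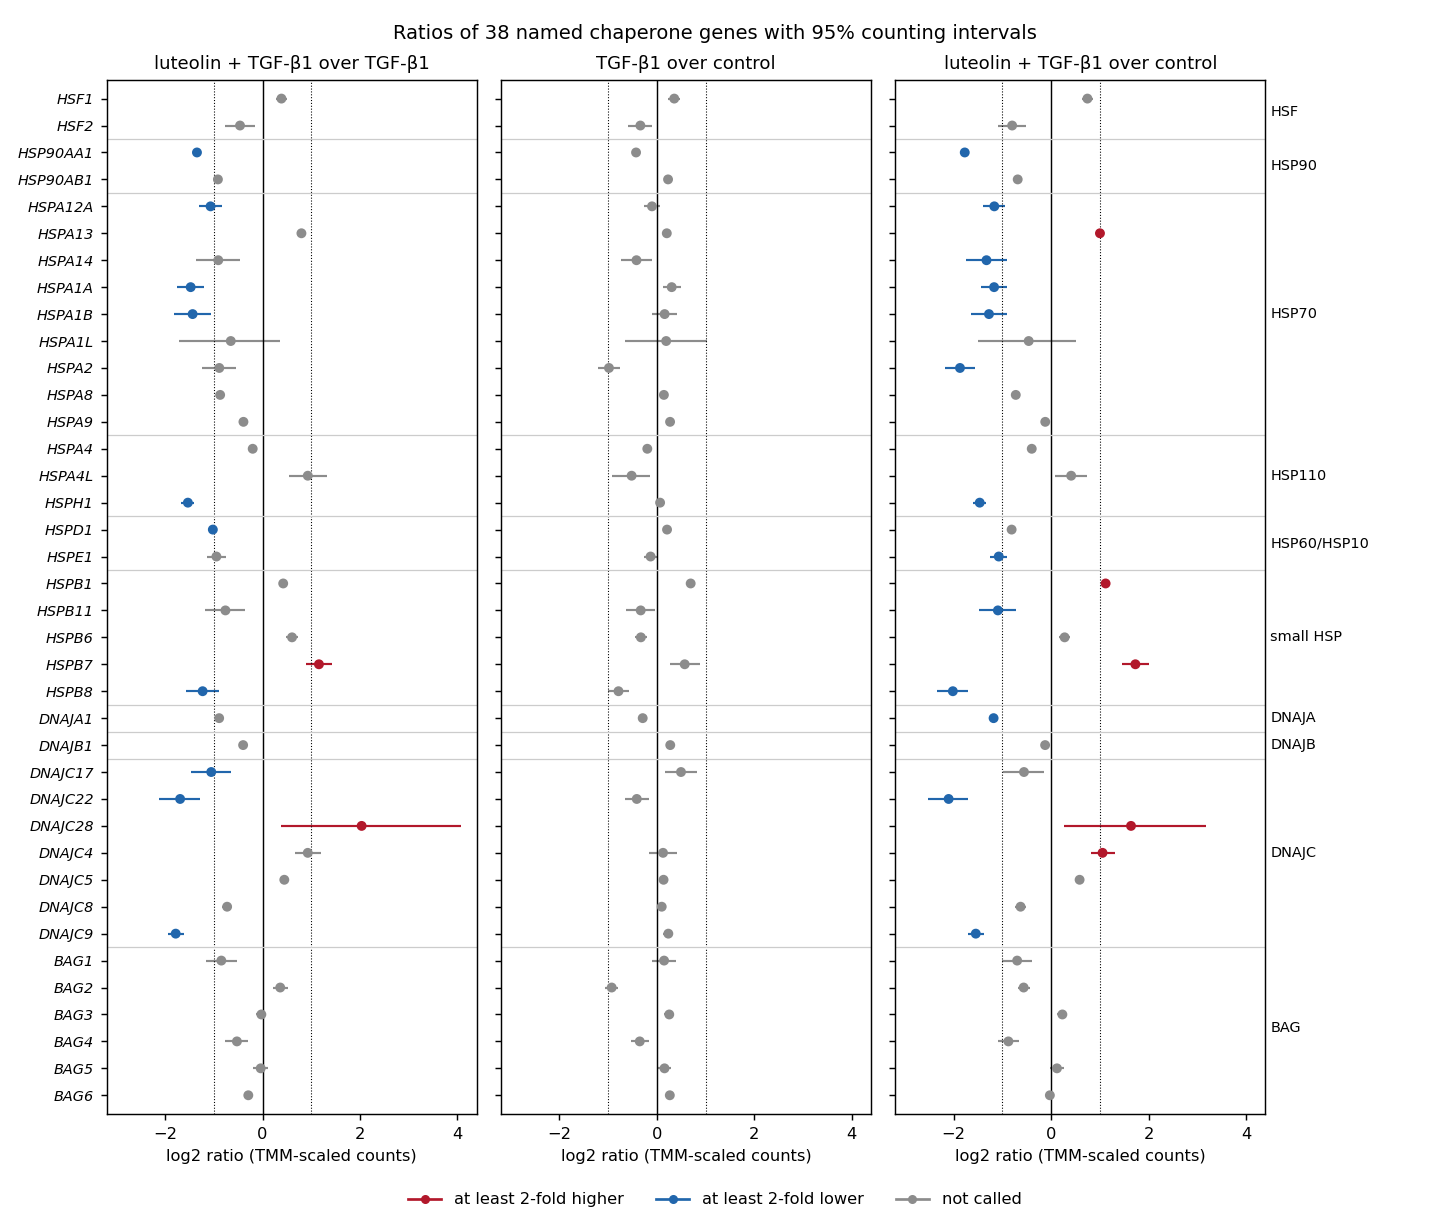
Log2 ratios of 38 named chaperone genes in 3 comparisons, ordered by role (points; bars are 95% counting intervals; dotted lines mark 2-fold). In the left panel HSP90AA1, HSPA1A, HSPA1B and HSPH1 lie between -1.35 and -1.53 and HSPB7 at 1.16; in the middle panel no gene passes a dotted line.

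By the motif shown above, the 6 eligible genes whose start windows hold 3 heat shock units had ratios of luteolin + TGF-β1 to TGF-β1 from -1.35 to 0.22, with a median of -0.90, 2 called lower and 0 higher. HSP90AA1 and HSPD1 were the called ones, HSPA8, HSP90AB1 and DNAJA1 lay between -0.87 and -0.92, and DNAJB6 lay at 0.22. The 12 with only the 2-unit match, among them HSPA1A, HSPA1B and HSPB8, had 3 called lower and a median of -0.28. The 36 with a window but no match had 4 called lower and 2 higher and a median of -0.15, and included HSPH1. Among all 13703 eligible genes, 14.8% were called lower and 12.5% higher, with a median of -0.04. Ratios of genes outside the group that hold the motif were not examined. The stretches were set beside the ratios of these few genes as a description, with no test.

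TGF-β1 over control sets the cytokine library against a control for which alone the labels name DMSO, so that the cytokine and any difference in DMSO cannot be told apart. No chaperone gene was called: 0 of 60 eligible genes were higher and 0 lower, where 3.70% of all 13416 eligible genes were higher and 6.67% lower. Ratios ran from -0.98 for HSPA2 (-1.22 to -0.75) to 0.93 for DNAJB5 (0.77 to 1.09), both just outside the limit, and the median was 0.08, against -0.01 over all eligible genes. At 1.5-fold, 2 were called higher and 3 lower (3.33% and 5%, against 8.29% and 12.3% of all). Those higher were DNAJB5 and HSPB1, at 0.70 (0.65 to 0.74), and those lower were HSPA2, BAG2 at -0.93 (-1.06 to -0.80) and HSPB8 at -0.79 (-1.001 to -0.57). HSP90AA1 was at -0.43 (-0.45 to -0.40) and HSP90AB1 at 0.23 (0.21 to 0.26). HSPA8, HSPA1A and HSPH1 were at 0.15, 0.31 and 0.07. With total counts, BAG2 and HSPA2 passed the 2-fold limit at -1.05 and -1.10, and the median of the chaperone genes moved to -0.06.

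**Figure D3:**
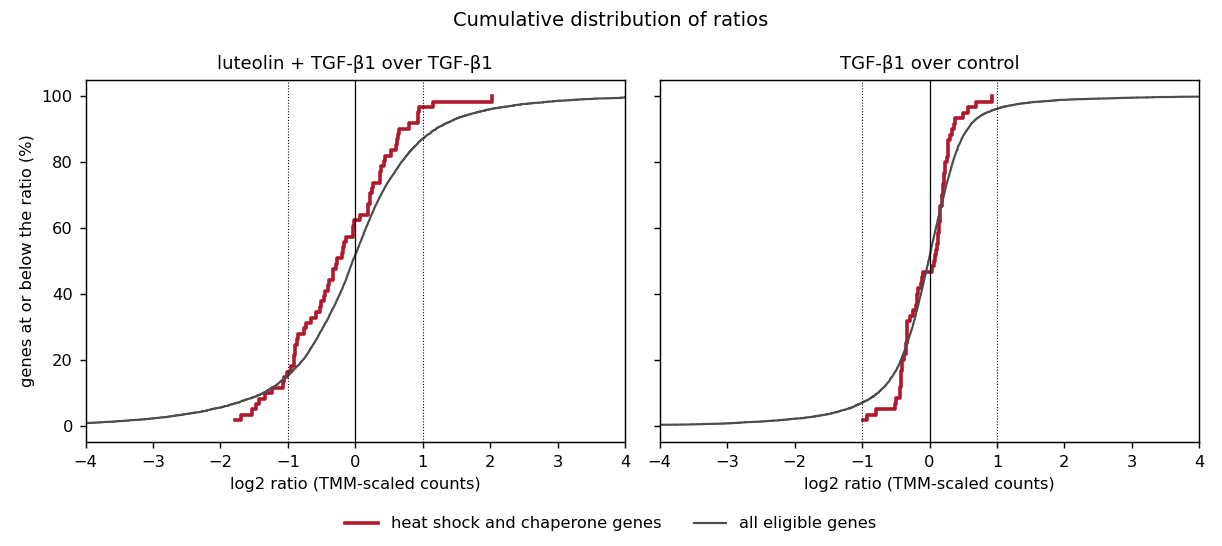
Cumulative share of genes (%) at or below each log2 ratio, for the eligible chaperone genes (61 on the left, 60 on the right) and for all eligible genes. The chaperone curve lies to the left of the curve of all genes around 0 on the left (medians -0.27 and -0.04), and it is the steeper curve on the right, with every ratio between -0.98 and 0.93.

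Luteolin + TGF-β1 over control shares a library with each comparison above, and its values are given beside them, not as further support. Of 61 eligible chaperone genes, 13 were lower and 5 higher, 21.3% and 8.20%, against 17.1% and 12.4% of all 13859 eligible genes, and the median was -0.17 against -0.08. With total counts the calls were 21 lower and 1 higher, and with the upper quartile 9 lower and 5 higher. Over all eligible genes they were 3528 lower and 1077 higher with total counts and 1974 lower and 2207 higher with the upper quartile, against 2368 lower and 1725 higher with TMM. At 1.5-fold 22 were lower and 10 higher (36.1% and 16.4%, against 26.3% and 20.3% of all). The lower genes were led by DNAJC22 at -2.10, HSPB8 at -2.02, HSPA2 at -1.87, HSP90AA1 at -1.77, DNAJC9 at -1.54 and HSPH1 at -1.46. HSPA14 at -1.32, HSPA1B at -1.27, DNAJA1 at -1.18, HSPA1A at -1.17, HSPA12A at -1.16, HSPB11 at -1.09 and HSPE1 at -1.07 followed. With the upper quartile HSPA1A, HSPA12A, HSPB11 and HSPE1 lost the call, at -0.99, -0.99, -0.92 and -0.90. The higher genes were HSPB7 at 1.73, DNAJC28 at 1.64 on 15 counts against 7 in control and again eligible only through the luteolin + TGF-β1 library, HSPB1 at 1.12, DNAJC4 at 1.06 and HSPA13 at 1.00. Of these, HSPB7 alone was called higher under all 4 scalings. The share of all eligible genes that kept a call under all 4 is not given here.

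For HSPB8, HSPA2 and HSP90AA1, the luteolin + TGF-β1 library was the lowest of the 3, TGF-β1 lay between and control was the highest, with no overlap of the counting intervals of their ratios with equality in any comparison. The same order and rule held for others, among them DNAJC22, DNAJA1, HSPA14 and HSPB11. For HSPA1A, HSPA1B, HSPH1 and DNAJC9, TGF-β1 lay a little above control (log2 ratios of 0.31, 0.16, 0.07 and 0.24) and luteolin + TGF-β1 was the lowest. The TGF-β1 over control intervals left out equality for HSPA1A (0.12 to 0.49) and DNAJC9 (0.13 to 0.34), but not for HSPA1B and HSPH1. HSPB7 and HSPB1 ran in the order luteolin + TGF-β1, TGF-β1, control from high to low. HSPB6, by contrast, had 87.5, 57.5 and 72.1 CPM in luteolin + TGF-β1, TGF-β1 and control, with TGF-β1 the lowest.

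Of the 13 chaperone genes outside the luteolin + TGF-β1 over TGF-β1 comparison, DNAJB3, DNAJB7, DNAJB8, HSPB2 and HSPB9 had 0 counts in every library, which allows up to 0.219, 0.201 and 0.151 CPM in luteolin + TGF-β1, TGF-β1 and control. The other 8 were DNAJA4, DNAJB13, DNAJC6, DNAJC12, HSPA6, HSPA7, HSPA12B and HSPB3, each with 19 counts or fewer in any library. DNAJA4, which holds the 2-unit match, had 2 counts in luteolin + TGF-β1, 9 in TGF-β1 and 19 in control.

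Other genes of protein folding were taken from lists by role, chosen with earlier results of these data known. Of 8 genes of the CCT chaperonin, which folds actin and tubulin, 3 were called lower and 0 higher in luteolin + TGF-β1 than in TGF-β1 (median -0.94), with CCT5 at -1.79 and CCT2 at -1.27. Of 6 genes of prefoldin, which hands actin and tubulin to CCT, 2 were lower (median -0.78), PFDN4 at -1.24 and PFDN2 at -1.03. Of 17 HSP90 and HSP70 partners, 3 were lower (median -0.67), and that share of 17.6% at 2-fold is near the 14.8% of all eligible genes. FKBP5, an HSP90 partner that is also induced by glucocorticoids, was the furthest, with 3.22 CPM in luteolin + TGF-β1, 34.6 CPM in TGF-β1 and 27.4 CPM in control, and a log2 ratio to TGF-β1 of -3.43 (-3.91 to -2.98). FKBP4 was at -1.72 and STIP1, the adaptor between HSP70 and HSP90, at -1.13. Proteasome subunit genes, the disposal side of protein quality control, had 1 of 14 lower, PSMD11 at -1.11. Their median was -0.63, with PSMB6 at -0.92. Their share called lower at 2-fold, 7.14%, is under that of all eligible genes. The CCT and prefoldin shares called lower at 2-fold were 37.5% and 33.3%, of 8 and 6 genes. At 1.5-fold the shares called lower were 87.5% for CCT, 66.7% for prefoldin, 52.9% for partners and 50% for proteasome. Of all eligible genes, 24.3% were lower at that limit. In each of these lists 0 genes were called higher at 1.5-fold, against 21.3% of all eligible genes. These list calls are under TMM, and those close to the limit depend on scaling. The upper quartile moves every log2 ratio of this comparison by 0.17. CCT7 at -1.12, PFDN2, STIP1 and PSMD11 then fall short of the 2-fold limit.

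Of 15 other HSF1-related genes, 2 were higher and 0 lower (median 0.19), and the 13.3% called higher is near the 12.5% of all eligible genes: HSF4 at 2.64 (1.66 to 3.77) on 57 counts in luteolin + TGF-β1 against 10 in TGF-β1, eligible only through the luteolin + TGF-β1 library, and RGS2 at 1.23 on 73 against 34 in those libraries. SERPINH1, the collagen chaperone HSP47, was at 0.56 (0.54 to 0.59), and the ubiquitin gene UBB at -0.98. Of 10 chaperones of the endoplasmic reticulum, 1 was higher, DNAJB9 at 1.18, and 0 lower (median -0.08), with HSPA5 at -0.91 and PDIA4 at -0.89. The DNAJB9 call depends on scaling, since total counts move every log2 ratio of this comparison by -0.22. All 10 cell division genes were lower, from PCNA at -1.32 to CDC20 at -6.45. The cell division genes and the lower chaperone genes moved in the same library, and the part of one in the other was not tested. In TGF-β1 over control, 0 genes were called in the CCT, prefoldin, partner, proteasome, HSF1-related, endoplasmic reticulum and cell division lists.

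**Figure D4:**
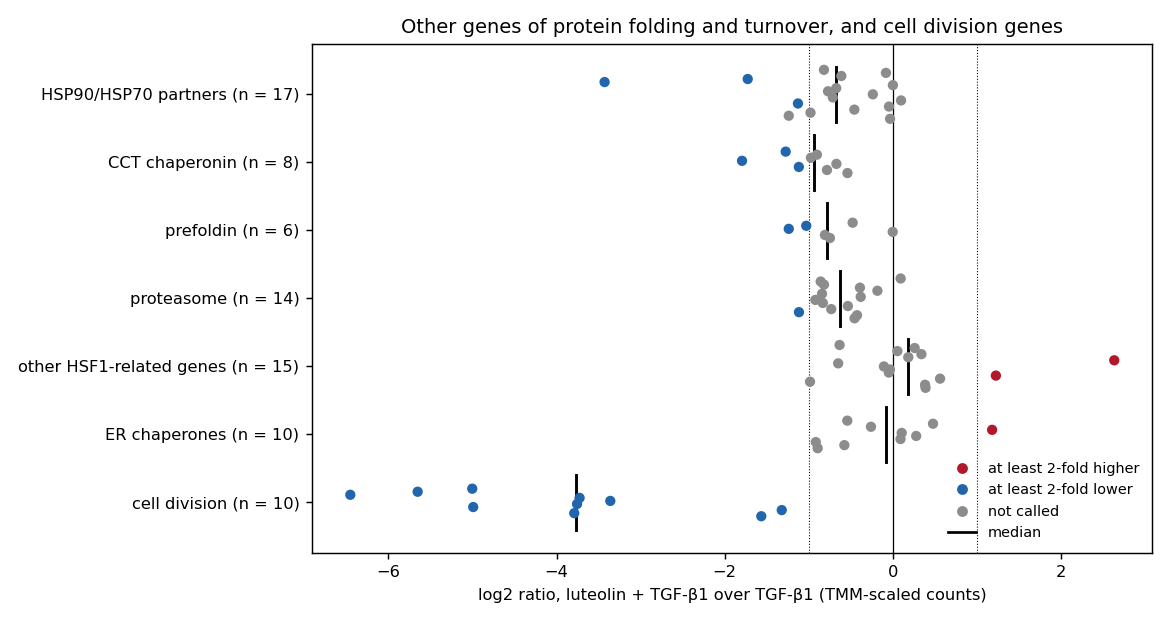
Log2 ratios of luteolin + TGF-β1 to TGF-β1 for the genes of 7 lists (1 point per eligible gene; black bars are medians; dotted lines mark 2-fold; vertical scatter within a list has no meaning). CCT, prefoldin, partner and proteasome medians lie between -0.63 and -0.94, the HSF1-related median at 0.19, and the cell division median at -3.77.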

How the data were processed

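The deposited counts, 1 whole number per Ensembl gene and library, were used without change; the deposited TPM columns, per the file headers the authors' own, served for levels, of single genes and summed over lists, and for no ratio or call. Library preparation used TruSeq Stranded mRNA kits on TRIzol RNA, per the labels' protocols. The submitters' processing notes name fastp 0.20.0, HISAT2 2.1.0, featureCounts 2.0.1, edgeR 3.36.0 and hg38, with no role or order. Annotation release and strand setting: not given in the sources used here. Whether reads of overlapping or antisense genes were kept apart in the counts is therefore not known here.

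Counts were scaled by TMM over the 3 mRNA libraries (edgeR 4.0.16; factors 0.879 for luteolin + TGF-β1, 1.02 for TGF-β1 and 1.11 for control). Exact 95% intervals of ratios are Clopper-Pearson, given the summed count of both libraries (scipy 1.17.1). They and the floor of 3 counts for a gene at 0 cover counting error only, since reads are not independent molecules. With 1 library per group no test was run; genes were called by size.

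The text names every chaperone gene outside the J-domain family with 1 CPM or more in a library, the J-domain genes called in any comparison and the 5 most abundant J-domain genes; others are named where a range or limit needs them. Genes and lists were chosen with earlier results of these data known. Alternatives were total counts, the upper quartile, DESeq2 1.42.0 size factors, other filters and a 1.5-fold limit. Protein sequences were not analysed here. Positions and start windows are from RefSeq, GRCh38.p14.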

Additional observations from a re-analysis of the deposited data

How the results depend on the processing

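No paired analysis was possible because each group had 1 mRNA library and no test was run. Under total counts, luteolin + TGF-β1 over TGF-β1 had 0 chaperone genes higher and 17 lower, with a median of -0.50. All eligible genes had 1187 and 2665, with a median of -0.27. Under the same scaling, luteolin + TGF-β1 over control had 1 higher and 21 lower, with a median of -0.51. All eligible genes had 1077 and 3528, with a median of -0.43. TGF-β1 over control then had 0 higher and 2 lower, against 411 and 1116 of all eligible genes. Under the upper quartile, luteolin + TGF-β1 over TGF-β1 had 5 higher and 7 lower, with a median of -0.10. All eligible genes had 2221 higher and 1605 lower, with a median of 0.15. The chaperone median of luteolin + TGF-β1 over control turned to 0.0093 (all eligible genes 0.11). Without a filter, TGF-β1 over control had 1 higher and 1 lower, against 626 and 1080 of all genes. With a filter at 5 CPM, luteolin + TGF-β1 over TGF-β1 had 1 higher and 10 lower of 58 eligible chaperone genes, against 975 and 1474 of all eligible genes. Higher calls were then 9.09% of the chaperone calls and 39.8% of all calls. In this comparison they were 0% and 30.8% with total counts, and 41.7% and 58.1% with the upper quartile. The number of all eligible genes under these scalings and filters is not given here, so these counts are not shares of eligible genes. At 1.5-fold the higher and lower counts were 10 and 19 for luteolin + TGF-β1 over TGF-β1 (all eligible genes 2914 and 3332). They were 2 and 3 for TGF-β1 over control (all 1112 and 1653), and 10 and 22 for luteolin + TGF-β1 over control (all 2818 and 3639). These follow from the shift or limit each setting applies. DESeq2 size factors changed no call of a named gene, and no called ratio of a named gene changed sign under any scaling tried.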
